A study of Mus musculus with 4 samples.

Results

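The 10 genes described here, Arntl, Clock, Npas2, Per1, Per2, Per3, Cry1, Nr1d1, Nr1d2 and Dbp, encode parts of the mammalian circadian clock, and were taken by gene symbol from a table of 25759 symbols. All 10 had a row, and all 10 passed the filter on low counts that left 13306 genes for testing. RNA came from type II cells of the alveolar epithelium, which make lung surfactant, isolated from C57BL/6 mice aged 14 weeks. One group was wild type (WT, 2 libraries, the WT pair) and the other, labelled Sftpc-mTOR transgenic (mTOR Tg, 2 libraries, the transgenic pair), carried a conditional transgene for active mTOR, the kinase that couples nutrients and growth factors to cell growth. Sftpc is the surfactant protein C gene, whose promoter is active in type II cells. The sources used here name no agent that switches the transgene on, no sex, no hour of collection, and do not say whether a library came from 1 mouse or a pool. Clock transcripts vary over the day, so genotype and hour of collection cannot be told apart in these libraries.

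The clock is a loop of transcription factors that turns over about once a day. BMAL1, the product of Arntl, pairs with CLOCK or with its relative NPAS2 and binds E-boxes at the Per, Cry, Nr1d1, Nr1d2 and Dbp genes. PER and CRY proteins then inhibit the pair. The nuclear receptors REV-ERB alpha (Nr1d1) and REV-ERB beta (Nr1d2) repress Arntl and Npas2 through a response element called RRE, and DBP activates genes with D-boxes, among them Per genes. In peripheral tissues, lung included, Nr1d1 and Dbp swing widely over the day, Arntl and Npas2 peak at about the opposite time, and Clock itself cycles weakly. Airway club cells are known for strong clock function in the lung.

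Sites of these 3 kinds lie close to the start sites of 5 members, and are shown because each stands for an arm of the loop. They come from RefSeq promoter windows on GRCm38.p6, from 250 bases before to 50 after a start site, of which 13 windows covered 9 members. Capitals mark the motif, and each line runs 5′ to 3′ on the strand of the gene. The stretches are Per1 at chr11:69098771-69098800 (plus strand), Cry1 at chr10:85185097-85185126 (minus strand), Nr1d1 at chr11:98775388-98775417 (minus strand), Per3 at chr4:151044852-151044881 and chr4:151044805-151044834 (minus strand), and Arntl at chr7:113207527-113207556 (plus strand).
Per1, E-box: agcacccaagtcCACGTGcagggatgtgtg
Cry1, E-box: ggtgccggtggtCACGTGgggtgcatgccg
Nr1d1, E-box variant: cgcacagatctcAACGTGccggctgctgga
Per3, first D-box: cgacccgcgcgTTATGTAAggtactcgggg
Per3, second D-box: cccgcccgcggTTATGTAAcccccgccgtg
Arntl, RRE: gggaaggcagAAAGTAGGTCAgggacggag

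Both strands were searched. The E-box CACGTG was found in 7.15% of all 32851 windows of 300 bases, its variant CACGTT in 4.68%, the D-box TTATGTAA in 0.938% and the RRE in 0.384%. Counted from the start site, the motif began at -166 in Per1, at -60 in Cry1, at -28 in Nr1d1, and at -205 and -158 in Per3. For Per1 this is the first of 2 annotated start sites, and the window of the second held none of these motifs. In Arntl the RRE began at base 27 after the start, within the 5′ untranslated region, for the second of 2 annotated start sites. Cry1 also held the variant at -79. A match of letters is a description and not a bound site, and these windows do not cover introns or distal elements.

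Across the libraries Nr1d1 and Dbp spanned the widest range of the 10 genes, 3.42-fold and 3.01-fold from the lowest library to the highest, where the others spanned 1.46-fold to 2.51-fold. Their lowest values were in the same library, WT replicate 1, and the other 3 libraries lay above it. Both mTOR Tg libraries had more Nr1d1 than both WT libraries and less Per3 and Cry1. None of the 10 differed between genotypes at an adjusted p under 0.05 in edgeR's quasi-likelihood test, in which 0 of 13306 genes were called higher (0%) and 0 lower (0%). At an unadjusted p under 0.05 there were 2 members, Nr1d1 and Per3, against 2.46% of all genes (327).

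**Figure D1:**
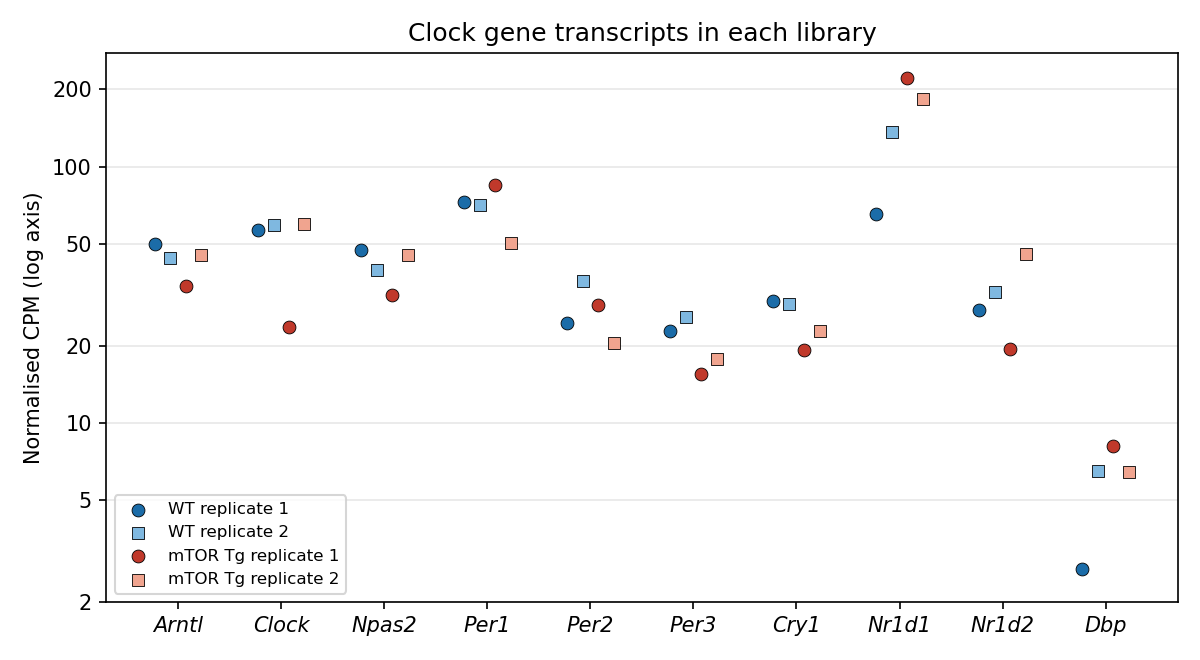
Normalised CPM (the count scaled to the library total, log axis) of the 10 clock genes, with 1 point for each of the 4 libraries. Nr1d1 and Dbp have their lowest point in WT replicate 1 (65.1 and 2.69 CPM), while Clock has its lowest in mTOR Tg replicate 1 (23.7 CPM).

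Several features of the libraries bear on these values. Totals ran from 18146693 counts in WT replicate 1 to 21972124 in mTOR Tg replicate 1. Type II cell transcripts were abundant, with Sftpc at 6.35% to 7.61% of counts, and club cell transcripts were too, with Scgb1a1 at 13.9% of counts in mTOR Tg replicate 1 and 4.52% to 7.55% in the others. The pan-leukocyte gene Ptprc had 0 to 3 counts per library, and Cd3e of T cells and C1qb of macrophages had 0, which allows up to 0.137 to 0.165 CPM. Every cell type holds clock transcripts, so in these bulk samples a change in the cell mix and a change of RNA per cell cannot be told apart. Long transcripts were under-represented in mTOR Tg replicate 1: over genes whose longest annotated transcript had at least 4653 bases its median deviation from the WT mean was -0.55 (log2), against 0.44 for transcripts of up to 1989 bases. In mTOR Tg replicate 2 the medians of the 4 length quartiles ran from -0.0030 to 0.0024. Of the members, Clock, Per1, Per2, Per3 and Nr1d2 are in the longest quartile and Dbp is in the shortest. For each of the 10 members a fold change or deviations from the WT mean are therefore also given after offsets that remove the trend of each library on transcript length and GC content. Other values are uncorrected unless stated. Marker sums are given as CPM of the library total, without the TMM scaling used for single genes. The marker sums of ciliated cells were 2842 CPM in mTOR Tg replicate 1 and 1202 to 1415 CPM elsewhere, those of club cells 162576 CPM against 57113 to 91345, and those of type II cells 101278 to 127384 CPM over the 4 libraries. Fibroblast markers summed to 33.0 to 63.7 CPM. The sums of 2 lists separated the genotypes. Endothelial markers came to 126 and 136 CPM in the WT pair and 82.1 and 76.1 CPM in the transgenic pair. Of these 4 of 8 genes were lower in both transgenic libraries, and Kdr was the largest single part of the sum in each library. Mesothelial markers came to 10.3 and 19.5 CPM in the WT pair and 30.3 and 22.05 CPM in the transgenic pair, with 4 of 5 tested genes higher in both transgenic libraries. In edgeR 0 genes of either list were called. The leukocyte list came to 15193 to 24454 CPM, nearly all of it Lyz2, which type II cells express too. Their part in the clock gene values was not tested.

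Nr1d1 encodes REV-ERB alpha, the main repressor of Arntl. It was at 65.1 and 136 normalised CPM (CPM after TMM scaling of the library sizes) in WT replicates 1 and 2 and at 222 and 183 CPM in mTOR Tg replicates 1 and 2, from 1185, 2694, 4533 and 3815 counts. The genotypes did not overlap, but the WT replicates differed by more than WT replicate 2 and mTOR Tg replicate 2 did. Means were 101 ± 50.3 CPM in the WT pair and 203 ± 28.1 CPM in the transgenic pair (mean ± SD, n = 2 per genotype), and the log2 fold change was 1.01 (SE 0.38, unadjusted p = 0.0390 and adjusted p = 0.860 in edgeR). That fold change was 0.57 without WT replicate 1 and 1.64 without WT replicate 2. Leaving out mTOR Tg replicate 1 gave 0.86 (edgeR adjusted p = 0.0646), and leaving out mTOR Tg replicate 2 gave 1.14 (adjusted p = 0.00103). In such fits a genotype has 1 library, which is taken to vary like the other genotype. After the length and GC correction it was 0.85, and both mTOR Tg libraries, at 0.95 and 0.94 above the WT mean, lay above WT replicate 2 at 0.54. Nr1d1 lies on chromosome 11 from 98767932 to 98775333 (GRCm38, minus strand), and its end overlaps the gene of thyroid hormone receptor alpha, Thra, on the opposite strand over 1075 bases. The sources used here do not say whether counting used strand. Thra was at 108 to 123 CPM over the 4 libraries, a 1.14-fold range, where Nr1d1 spanned 3.42-fold.

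Nr1d2, the REV-ERB beta gene (chromosome 14, 18204054 to 18239127), differed from Nr1d1 in its order over the libraries. It was at 27.5 and 32.2 CPM in the WT pair and at 19.3 and 45.5 CPM in the transgenic pair, so that the mTOR Tg libraries were the lowest and the highest of the 4. The log2 fold change was 0.12 (SE 0.41, edgeR adjusted p = 0.938). Set against WT alone, mTOR Tg replicate 2 gave 0.61 and mTOR Tg replicate 1 gave -0.63, and edgeR called the gene in each of these fits, in opposite directions (adjusted p = 0.0191 and 0.00330). After the length and GC correction mTOR Tg replicate 1 was at -0.02 and replicate 2 at 0.63 against the WT mean. The lowest library was then WT replicate 1, at -0.10, as it was for Nr1d1, and WT replicate 2 was at 0.10.

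Dbp, which encodes the D-box activator and is a textbook direct output of BMAL1, had the lowest counts of the 10 genes, with 49 and 128 in the WT pair and 165 and 134 in the transgenic pair. These are 2.69 (95% exact Poisson interval 1.99 to 3.56) and 6.47 (5.40 to 7.69) CPM in the WT pair and 8.10 (6.91 to 9.43) and 6.42 (5.38 to 7.60) CPM in the transgenic pair. WT replicate 1 stands alone below the rest, while the intervals of the other 3 libraries overlap. Such intervals cover counting error only, since these reads carry no molecular identifiers. The log2 fold change was 0.66 (SE 0.45, adjusted p = 0.860 in edgeR). It was 0.16 when WT replicate 1 was left out and 1.43 when WT replicate 2 was, and 0.47 or 0.81 on leaving out the first or the second mTOR Tg library. After the length and GC correction both mTOR Tg libraries, at 0.38 and 0.59 above the WT mean, were below WT replicate 2 at 0.64. Dbp (chromosome 7, 45705088 to 45710203) overlaps Sphk2, a sphingosine kinase gene on the opposite strand, over 737 bases. Sphk2 was at 77.1 to 106 CPM.

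The activators differed less between the WT replicates than Nr1d1 and Dbp did. Arntl (chromosome 7, 113207465 to 113314126) was at 49.9 and 43.8 CPM in the WT pair and at 34.1 and 45.3 CPM in the transgenic pair. Its highest value was in WT replicate 1, the library with the least Nr1d1, and its lowest in mTOR Tg replicate 1, the library with the most. The libraries in between did not keep that opposite order. There mTOR Tg replicate 2 had more Nr1d1 than WT replicate 2 (183 against 136 CPM) and also slightly more Arntl. The log2 fold change of -0.24 (SE 0.23, adjusted p = 0.860 in edgeR) moved to -0.05 when mTOR Tg replicate 1 was left out and to -0.46 when replicate 2 was. Npas2, the relative of Clock (chromosome 1, 39193731 to 39363236), had the same order of libraries, at 47.2 and 39.6 CPM in the WT pair and 31.5 and 45.3 CPM in the transgenic pair. Both genes keep these positions after the length and GC correction, with mTOR Tg replicate 1 at -0.39 for Arntl and -0.35 for Npas2 against the WT mean. Clock (chromosome 5, 76209868 to 76304792) was at 56.8 and 58.9 CPM in the WT pair and at 59.4 CPM in mTOR Tg replicate 2, and stood out only in mTOR Tg replicate 1, at 23.7 CPM. Its longest annotated transcript, at 9744 bases, is the longest of the 10 genes. The deviation of -1.28 in that library became -0.18 after the length and GC correction, and the log2 fold change went from -0.48 (SE 0.43, edgeR adjusted p = 0.860) to -0.06. Against WT, mTOR Tg replicate 1 alone gave -1.29 and mTOR Tg replicate 2 alone gave 0.039.

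Cry1 encodes a strong inhibitor of the BMAL1 pair. It was at 29.9 and 29.2 CPM in the WT pair and at 19.2 and 22.8 CPM in the transgenic pair, with no overlap between the genotypes. The WT replicates differed by 0.04 (log2), and the log2 fold change was -0.49 (SE 0.21, edgeR unadjusted p = 0.0587, adjusted p = 0.860). It ranged from -0.62 to -0.37 with any 1 library left out and was -0.53 after the length and GC correction. The sum of endothelial markers, given above, was likewise lower in both mTOR Tg libraries, and its part in Cry1 and Per3 was not tested. Cry1 lies on chromosome 10 from 85131700 to 85185064.

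Per3 (chromosome 4, 151003652 to 151044665) was likewise lower in both mTOR Tg libraries, at 22.8 and 25.9 CPM in the WT pair and 15.6 and 17.7 CPM in the transgenic pair. Its log2 fold change was -0.55 (SE 0.21, edgeR unadjusted p = 0.0430, adjusted p = 0.860), from -0.65 to -0.46 with any 1 library left out, and -0.39 after the length and GC correction. Its lowest library was mTOR Tg replicate 1 without the correction. After it the lowest was mTOR Tg replicate 2, at -0.47 against the WT mean where replicate 1 was at -0.31 (log2). That of Dbp was WT replicate 1 both with and without the correction. The whole of Per3 lies within the annotated span of Camta1 on the same strand, which had 8.89 to 12.5 CPM.

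Per1 and Per2, the other period genes, are also induced by signals from outside the clock. Per1 (chromosome 11, 69095217 to 69109960) was at 72.7 and 71.1 CPM in the WT pair and at 84.3 and 50.3 CPM in the transgenic pair, which flank WT on either side. The log2 fold change was -0.09 (SE 0.29, adjusted p = 0.927 in edgeR). It was -0.51 with mTOR Tg replicate 1 left out (edgeR adjusted p = 0.0254) and 0.23 with replicate 2 left out, and -0.15 after the length and GC correction. Per2 (chromosome 1, 91415982 to 91459324) was at 24.6 and 35.8 CPM in the WT pair and 28.7 and 20.4 CPM in the transgenic pair, and its log2 fold change was -0.30 (SE 0.29, adjusted p = 0.860 in edgeR). That value rested on single libraries. It was -0.55 with the first WT library left out and -0.0022 with the second, -0.57 and -0.076 on leaving out the first and the second transgenic one, and -0.15 after the length and GC correction, which moved mTOR Tg replicate 1 from -0.05 to 0.20 against the WT mean. Both genes were lowest in mTOR Tg replicate 2, at -0.54 against the WT mean for Per2 and -0.51 for Per1. Immediate early genes, which respond within minutes to stimuli such as cell isolation, were lowest in that library in 10 of 12 cases, against 22.2% of all genes, and 1 of the 10, Zfp36, had 339.6 CPM there and 339.8 CPM in WT replicate 1. Fos was at 684 and 719 CPM in the WT pair and 559 and 448 CPM in the transgenic pair, and Egr1 at 289, 239, 167 and 148 CPM in the same order. Fosb was at 334, 456, 316 and 233 CPM. Ier3 was higher in both mTOR Tg libraries, at 21.5, 25.8, 52.0 and 28.3 CPM. Of the 12 immediate early genes tested 6 were lower in both mTOR Tg libraries and 1 was higher, against 17.0% and 17.6% of all genes, 0 passed the threshold, and the median over the 12 was -0.25 (log2 fold change). Their part in the Per values was not tested.

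**Figure D2:**
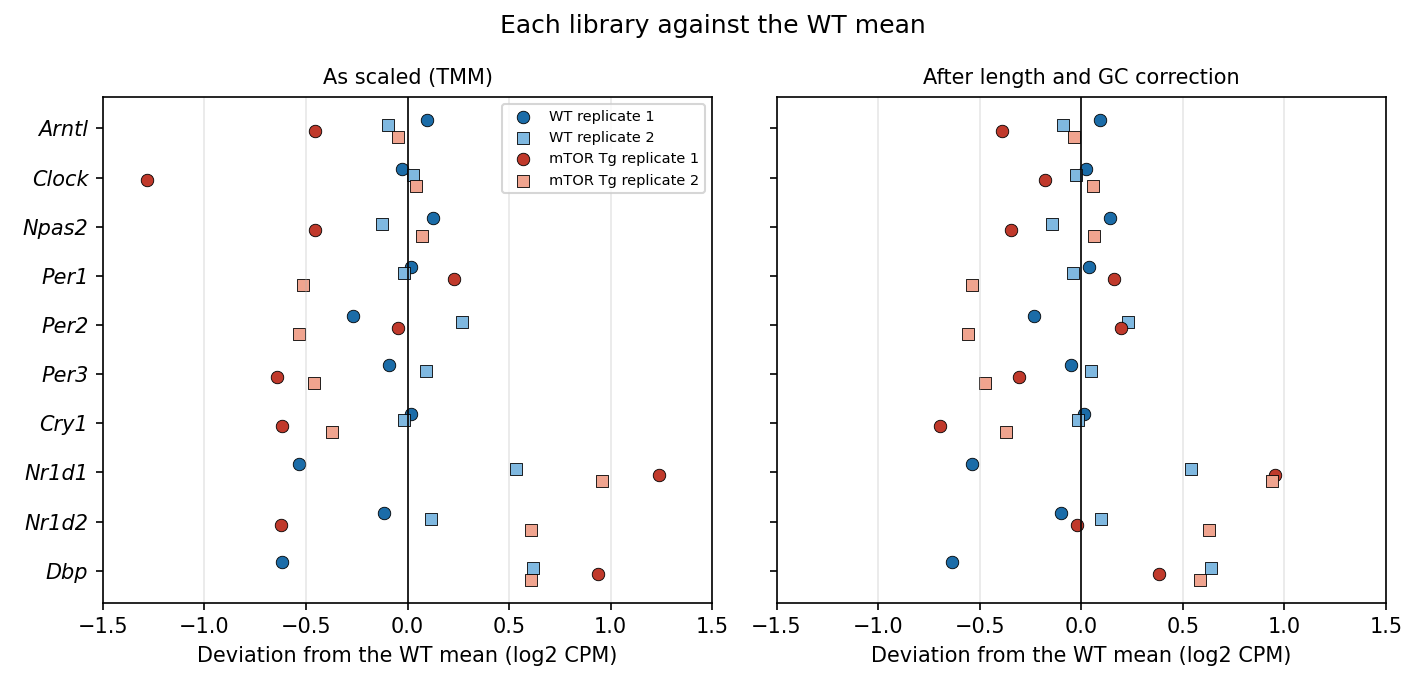
Deviation of each library from the WT mean (log2 CPM) for the 10 clock genes, as scaled by TMM on the left and after the length and GC correction on the right. Clock in mTOR Tg replicate 1 moves from -1.28 to -0.18, while Nr1d1 stays above, and Cry1 and Per3 below, both WT points in both mTOR Tg libraries.

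Counted over the 10 members, the transgenic pair lay wholly above the WT pair in 1 (Nr1d1) and wholly below it in 2 (Per3 and Cry1), against 17.6% and 17.0% of all genes tested. The same 1 and 2 members were apart after the length and GC correction, where the shares of all genes were 17.2% and 17.9%. These shares of members are close to those of all genes. Without the correction the median log2 fold change was -0.21 over the members and 0.01 over all genes. Likewise without it, mTOR Tg replicate 1 was the lowest of the 4 libraries in 6 members and in 39.9% of all genes. After the correction Per3 was instead lowest in mTOR Tg replicate 2 (-0.47 against the WT mean, log2) and Nr1d2 in WT replicate 1 (-0.10). With mTOR Tg replicate 1 left out, edgeR called 2 members, Per1 and Nr1d2, and 2.20% of all genes. With mTOR Tg replicate 2 left out it called 7 members, that is all but Per1, Per2 and Dbp, and 45.5% of all genes. Each of these fits sets a single mTOR Tg library against WT, so the calls of either hold no replication of the mTOR Tg group.

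**Figure D3:**
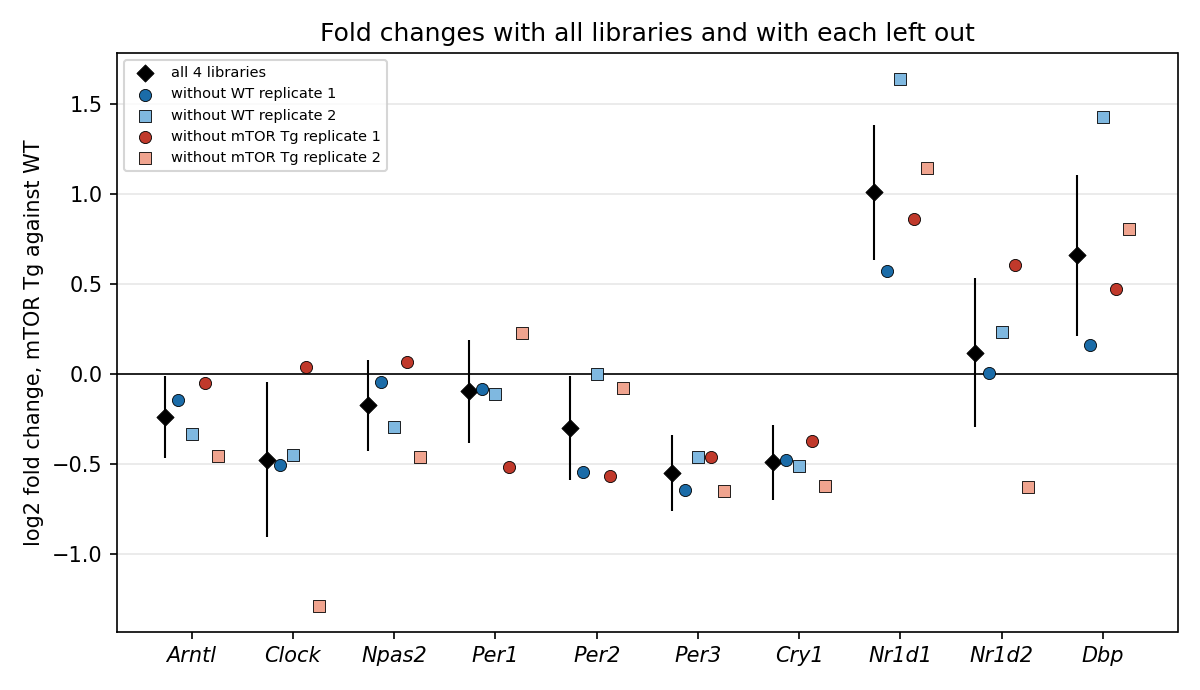
Log2 fold change of mTOR Tg against WT for each clock gene with all 4 libraries (diamonds, bars are 1 SE) and with each library left out in turn. Per3 and Cry1 keep values between -0.65 and -0.37 throughout, while Nr1d2 runs from -0.63 to 0.61.

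The WT replicates were also compared with each other, a comparison chosen after the values were seen. They were alike in most genes, with a median absolute difference of 0.14 (log2) and 264 of 13306 genes over 2-fold apart (1.98%). Of the clock genes 2 were over 2-fold apart. Nr1d1 was 2.09-fold higher in WT replicate 2, a wider gap than in all but 231 genes, and Dbp was 2.40-fold higher, a wider gap than in all but 151 genes. Per2 was 1.46-fold higher in WT replicate 2 and Nr1d2 1.17-fold. In the opposite direction Npas2 was at 0.84 and Arntl at 0.88 of the level of WT replicate 1. Exact Poisson intervals of Arntl in the WT replicates, 46.7 to 53.3 and 40.9 to 46.8 CPM, overlap at their ends. Clock, Per1 and Cry1 differed little in the WT pair, by 0.05, -0.03 and -0.04 (log2, replicate 2 minus replicate 1). WT replicate 1 was the lowest of the 4 libraries for 2 members, Nr1d1 and Dbp, against 17.4% of all genes, and the highest for 3, Arntl, Npas2 and Cry1, against 18.1%. The summed mesothelial markers, given above, had the order of Nr1d1 over the 4 libraries, lowest in WT replicate 1 and highest in mTOR Tg replicate 1. The part of other cells in these gaps was not tested. With 1 library on each side the gap has no replicate check.

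The mTOR Tg replicates were further apart in general, with a median absolute difference of 0.45 (log2) and 14.6% of genes over 2-fold apart. Without the length and GC correction the clock genes with the widest gaps were others. Clock was at 0.40 and Nr1d2 at 0.42 of the replicate 2 level in replicate 1, and these were the 2 members over 2-fold apart. Nr1d1 was 1.22-fold and Dbp 1.26-fold higher in replicate 1. After the correction neither Clock (-0.18 and 0.06 against the WT mean in replicates 1 and 2, log2) nor Nr1d2 (-0.02 and 0.63) was over 2-fold apart. The widest gaps were then those of Per2 (0.20 and -0.56) and Per1 (0.16 and -0.54). Nr1d1 was at 0.95 and 0.94 and Dbp at 0.38 and 0.59.

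**Figure D4:**
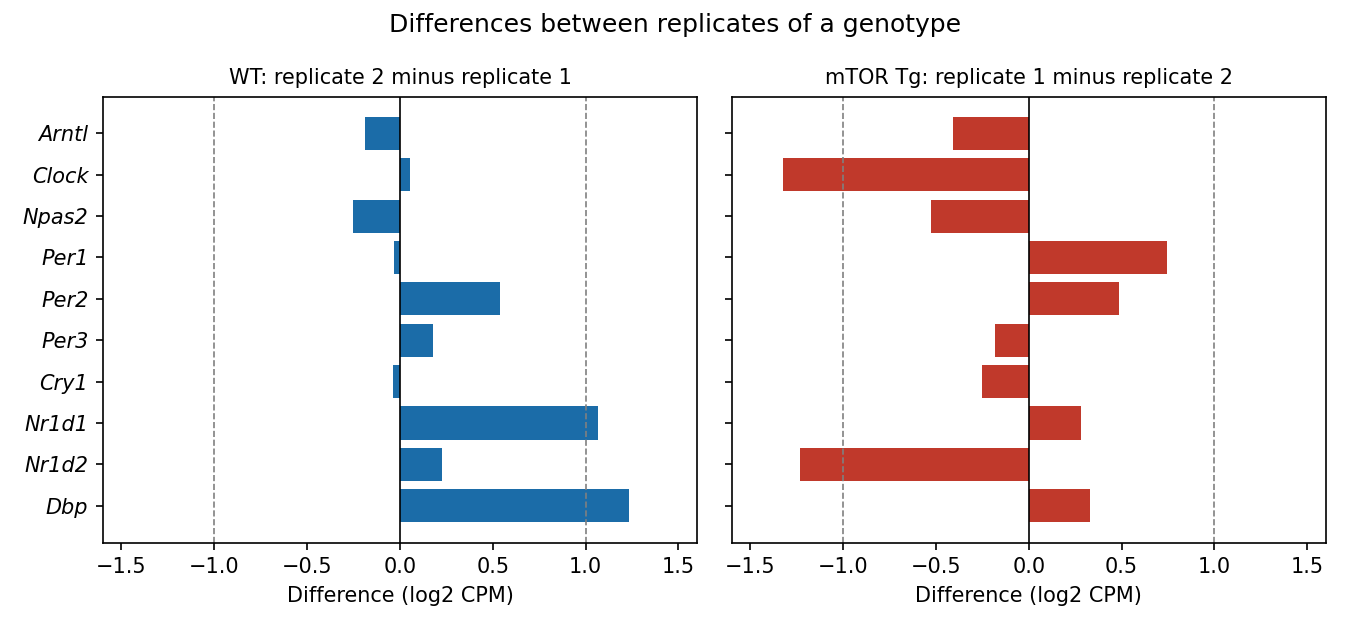
Difference between the replicates of each genotype (log2 CPM) for the 10 clock genes, WT on the left and mTOR Tg on the right, with dashed lines at a 2-fold difference. Nr1d1 (1.06) and Dbp (1.24) pass the line in WT, and Clock (-1.32) and Nr1d2 (-1.23) in mTOR Tg. Values are as scaled by TMM, and Clock and Nr1d2 do not pass the line after the length and GC correction.

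A ratio of clock genes within a library does not depend on how libraries are scaled. The log2 ratio of Dbp to Arntl was -4.16 and -2.74 in the WT pair and -2.06 and -2.80 in the transgenic pair. WT replicate 1 again lay apart, and WT replicate 2 fell between the mTOR Tg libraries. Means were -3.45 ± 1.01 in the WT pair and -2.43 ± 0.52 in the transgenic pair (mean ± SD, n = 2 per genotype), with a difference of 1.02 (exact permutation test, two-sided, p = 0.667). With 2 libraries against 2 this test cannot give a p below 1 in 3. The difference was 0.31 when WT replicate 1 was left out and 1.73 when WT replicate 2 was, 0.65 and 1.39 on leaving out the first and the second mTOR Tg library, and 0.70 after the length and GC correction. The ratio of Nr1d1 to Arntl, which was added after the values were seen, was 0.38 and 1.64 in the WT pair and 2.70 and 2.01 in the transgenic pair (log2), with no overlap between genotypes. After the length and GC correction it was 0.47, 1.73, 2.45 and 2.08 in the same order. Nr1d1 alone did not overlap either, and a ratio without overlap has only the smallest p the exact test can give. The ratio of Cry1 to Arntl was lower in the transgenic pair without overlap, at -0.74, -0.58, -0.83 and -0.98. It stayed apart after the correction. That of Per3 was lower without overlap before the correction only, and that of Nr1d2 higher after it only. Those of Per1, Per2 and Dbp overlapped in both settings.

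Levels can be compared between genes only per length, here as normalised CPM per kilobase of the longest annotated transcript. On this scale Nr1d1 was the most abundant of the 10, with a mean of 55.7 and a range of 23.9 to 81.7 that did not reach the next gene. Per1 (14.9, range 10.8 to 18.1) and Arntl (14.5, range 11.5 to 16.8) followed and overlapped each other. The range of Arntl ended above that of Npas2 (9.65, range 7.44 to 11.1). From there on each gene overlapped the next, in the order Npas2, Cry1 (8.35), Nr1d2 (6.68), Clock (5.10), Per2 (4.70), Per3 (3.41) and Dbp (3.22).

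Of 19 other clock genes (the remaining cryptochrome, ROR receptors, E-box repressors, kinases and ubiquitin ligases of the loop) 17 were tested and 0 passed the threshold in either direction. Of these 3 were higher and 3 lower in both mTOR Tg libraries, near the 17.6% and 17.0% of all genes, and the median over the 17 was 0.03 (log2 fold change). The 4 with the smallest p were Fbxl21, Timeless, Nfil3 and Ciart. Nfil3, which encodes the repressor that competes with DBP for D-boxes, was at 30.7 and 32.7 CPM in the WT pair and 40.3 and 35.1 CPM in the transgenic pair. After the length and GC correction mTOR Tg replicate 1 was at -0.01 for Nfil3, between the WT libraries at -0.07 and 0.07 (log2, against the WT mean). Nfil3 and Csnk1d were higher in both mTOR Tg libraries without the correction, but not after it. Ciart, a repressor of the BMAL1 pair, had 20 and 16 counts in the WT pair and 52 and 15 in the transgenic pair. Fbxl21 had 24, 34, 6 and 26 counts and Timeless 28, 26, 22 and 18 in the same order. Cry2 and Rora, named after their values were seen, complete the loop. Cry2, the other cryptochrome gene, was at 68.1 and 65.2 CPM in the WT pair and 82.3 and 63.3 CPM in the transgenic pair. Rora, whose product activates through the RRE that REV-ERB represses, was at 39.9 and 38.4 CPM in WT, 12.8 CPM in mTOR Tg replicate 1 and 47.9 CPM in replicate 2. After the length and GC correction mTOR Tg replicate 1 was at -0.44 (log2) and replicate 2 at 0.31 against the WT mean for Rora.

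Of 12 genes known to cycle downstream of the clock 11 were tested, 1 was higher and 2 were lower in both mTOR Tg libraries, against 17.6% and 17.0% of all genes, and 0 passed. The median log2 fold change was 0.03. Tsku, a secreted proteoglycan gene, was at 36.5 and 34.5 CPM in the WT pair and 56.2 and 61.8 CPM in the transgenic pair (log2 fold change 0.73, SE 0.19, unadjusted p = 0.00990 and adjusted p = 0.860 in edgeR). Wee1, the kinase gene that restrains entry into mitosis, was at 18.2 and 20.4 CPM in the WT pair and 12.7 and 16.6 CPM in the transgenic pair. Lonrf3 had 10.8 and 8.54 CPM in the WT pair, 2.55 CPM in mTOR Tg replicate 1 and 9.38 CPM in replicate 2, and the low library was still at -1.97 (log2) against the WT mean after the correction. Tspan4 was at 3.84 and 8.19 CPM in the WT pair and at 10.01 and 7.09 CPM in the transgenic pair, and like Dbp had its lowest level in WT replicate 1. Tef, which encodes a relative of DBP and was named after its values were seen, was at 61.2 and 77.7 CPM in the WT pair and 115 and 53.9 CPM in the transgenic pair (0.84 and -0.36 against the WT mean after the correction). Among 12 glucocorticoid targets, listed because glucocorticoids set peripheral clocks and induce Per1, 4 were higher and 1 was lower in both mTOR Tg libraries, against 17.6% and 17.0% of all genes, and 0 passed, with a median of 0.05. Their smallest p-values belonged to Mt2, at 11.8 and 7.23 CPM in the WT pair and 24.8 and 33.7 CPM in the transgenic pair, and to Pdk4, at 6.09, 7.23, 11.9 and 26.1 CPM in the same order. Fkbp5 followed at 6.64, 6.27, 10.1 and 8.09 CPM and Lcn2 at 306, 256, 320 and 415 CPM. These values and counts are without the length and GC correction. After it Mt2, Pdk4 and Fkbp5 stayed above both WT libraries. Lcn2 did not, at -0.42 in mTOR Tg replicate 1 against the WT mean (log2). Tsc22d3 (-0.20 and -0.82), Dusp1 (-0.43 and -0.49), Errfi1 (-0.45 and -0.015) and Ddit4 (-0.30 and -0.48) were then below both WT libraries.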

How the data were processed

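Transcripts were counted in 4 libraries, 2 of each genotype. The authors deposited 1 table of raw counts by gene symbol, and per the submitters' processing notes HISAT2, edgeR and the build mm10 were used. The sources used here name no counting program, annotation, strandedness or batch. Counts were fitted with edgeR 4.0.16 in R 4.3.3 (filterByExpr with a minimum count of 10, TMM, glmQLFit and glmQLFTest with genotype as the only term, Benjamini-Hochberg over 13306 genes, threshold 0.05). SE is the log2 fold change divided by the square root of F. Log2 CPM used a prior count of 2. Positions, lengths and GC content came from GENCODE M21 (GRCm38) by symbol. The correction subtracts a loess fit (span 0.5) of each library on length and GC content, known for 98.7% of tested genes. Alternatives used DESeq2 1.42.0, limma 3.58.1, other scaling factors and filters, the replicate number and left-out libraries. All 10 members are named, and up to 4 genes with the smallest p from each related list. The members and lists were chosen with earlier results of these data known. The code was tested on simulated counts. Where samples are not known to be separate mice, p-values measure only the spread between these samples, which may be technical.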

Additional observations from a re-analysis of the deposited data

How the results depend on the processing

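The number of genes called was 0 with all libraries in edgeR, 0 with other scaling factors or filters and in limma-voom, 12 in DESeq2 and 37 with the replicate number as a block, and 11 to 6200 with a library left out. The number of clock genes called was 0 in all of these except when a library was left out, when it ran from 0 to 7. The replicate numbers share nothing in the labels, and the deviations of same-numbered libraries correlated at 0.07 over genes. With the block and the length and GC correction together 0 genes were called, and the cause of the difference was not tested. The direction of Nr1d2 turned in limma-voom (-0.0062) and with the block (-0.0020). With a library left out the log2 fold change ran from -1.29 to 0.039 for Clock, from -0.46 to 0.065 for Npas2, from -0.51 to 0.23 for Per1 and from -0.63 to 0.61 for Nr1d2. Arntl, Per3, Cry1, Nr1d1 and Dbp kept their direction in all 14 alternatives, and Per2 did so only in sign, from -0.57 to -0.0022 with a library left out. Dbp, with as few as 49 counts, is the member most limited by depth.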

Other observations

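Of all 13306 genes tested 1.98% were over 2-fold apart in the WT pair, as Dbp and Nr1d1 were. In the related and marker lists 3 genes were, each higher in WT replicate 2. They came from 12 glucocorticoid targets, 11 tested genes downstream of the clock and 5 tested mesothelial markers. The other lists, of 17, 12, 10, 8, 8, 8, 6 and 1 tested genes, held none. All are named after their values were seen. Zbtb16, a transcription factor gene induced by glucocorticoids, had 118 and 332 counts in the WT pair, against 436 and 229 in the transgenic pair, and was 2.59-fold higher in WT replicate 2 than in replicate 1, a wider gap than in all but 112 of 13306 genes. Tspan4, a tetraspanin gene that cycles with the clock, was 2.13-fold higher in WT replicate 2, a wider gap than in all but 228 genes. Msln, a marker of mesothelial cells, was 2.21-fold higher there, a wider gap than in all but 201 genes, with 101 and 242 counts in the WT pair and 385 and 201 in the transgenic pair. Its part in the clock gene gaps was not tested.

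Cxcl5, a neutrophil-attracting chemokine gene known to be under clock control in airway club cells, had 5.44 and 8.44 CPM in the WT pair, against 28.9 and 30.1 in the transgenic pair, and was not called (log2 fold change 2.09, adjusted p = 0.860 in edgeR). Cxcl5 is in none of the lists above. Among the libraries it was lowest in WT replicate 1, as were 17.4% of all genes. Nr1d1 was lowest there too, and the order of Cxcl5 over the other 3 differed from that of Nr1d1. Any part of the clock genes in the level of Cxcl5 was not tested.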
